A study of Mus musculus with 183 samples.

Results

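The 200 mRNAs described here are the non-histone mRNAs of mouse embryonic stem cells (mESCs) with the highest relative binding to SKIV2L, the RNA helicase of the cytoplasmic Ski complex. They were chosen from 6296 non-histone mRNAs with at least 5 RPKM as the median of the 3 tagged cell lines, out of 7240 mRNAs with relative binding values. SKIV2L, the nuclear helicase MTR4 and the 5′–3′ exonuclease XRN1 had been compared by CRAC, in which a tagged protein is crosslinked to RNA with UV light and the bound fragments are sequenced, and the share of each mRNA's reads that came from SKIV2L, over the sum of the 3 proteins, decided the choice. The series holds 183 samples, and 47 of them are RNA-seq libraries of a half-life experiment deposited as counts.

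The half-life experiment used 2 clones. Clone 5F was Rosa26Cre-ERT2/- Skiv2l fl/fl. Clone 7E was Rosa26Cre-ERT2/BirA-V6 and Aven-/-, its label gives Skiv2l as 3xFLAG-Avi/3xFLAG-Avi, and the study treats it as conditional for Skiv2l too. Each was sampled untreated (day 0) and in libraries labelled day 4, which had 4 days of 0.1 µM 4-hydroxytamoxifen (4OHT), so that Cre could remove the Skiv2l exons of the catalytic domain. At both days transcription was stopped with actinomycin D and RNA was taken after 120, 240 or 360 min, and mock cells received DMSO for 360 min. Each group had 3 libraries, except that the 120 min group of clone 5F at day 0 had 2. Each genotype was 1 clone, so clone and genotype cannot be told apart, and the replicates are called technical, so that p-values measure only the spread between these libraries. Library totals ran from 24440935 to 34114250 gene counts.

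The Ski complex threads mRNAs from their 3′ end into the cytoplasmic exosome and contacts the ribosome, which places it in surveillance of translating mRNAs, whereas XRN1 degrades decapped mRNAs from the 5′ end and MTR4 serves the nuclear exosome. AVEN is an RNA-binding protein that associates with the Ski complex. Abundant housekeeping mRNAs, such as those of proteasome, ribosome and respiratory chain proteins, are usually short and long-lived.

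The SKIV2L share of the 200 mRNAs ran from 0.8813 in Psma3 to 0.6269 in Akap12, with a median of 0.677. Their median MTR4 share was 0.142 and their median XRN1 share 0.168, against 0.286, 0.303 and 0.346 for the 3 shares over all 6296 mRNAs. The 3 shares of an mRNA sum to 1 and the SKIV2L share chose the list, so these values describe the choice and were not tested. They come from pooled CRAC libraries and have no replicate error here. The last mRNAs inside the list were Cox5a (0.6280), a cytochrome c oxidase subunit, Atp6v1e1 (0.6273), a subunit of the vacuolar proton pump, and Akap12 (0.6269), a scaffold for protein kinase A. The first mRNAs outside were Crabp1 (0.6267), a retinoic acid-binding protein, Rps24 (0.6265), a protein of the small ribosomal subunit, and Mmp14 (0.6264), a membrane matrix metalloproteinase. Akap12 and Crabp1, on either side of the limit, were thus nearly equal. The 48 histone mRNAs at the same RPKM minimum, left out by the rule, had a median share of 0.539, and 15 of them reached the level of Akap12.

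Psma3, a subunit of the proteasome core (ENSMUSG00000060073, chr12:70974621-70996347, GRCm38), headed the list. Hnrnpa3, an hnRNP protein that binds RNA (chr2:75659261-75669407), followed with a share of 0.8732, and Sparc, a secreted matrix glycoprotein (chr11:55394500-55423183), with 0.8441. Rhox5, a homeobox factor encoded on the X chromosome (chrX:37804842-37808876), had 0.8327. Atpif1, the inhibitor of the mitochondrial ATP synthase (chr4:132530555-132533659), had 0.8324. Among the next members were Ifitm3, an interferon-induced membrane protein (chr7:141009586-141010770), with 0.8298, and Atp5o, a subunit of the ATP synthase (chr16:91925214-91931687), with 0.7832. Rpl7a, a protein of the large ribosomal subunit (chr2:26910764-26913318), had 0.7811, Eif3m, a subunit of initiation factor eIF3 (chr2:104999656-105017080), had 0.7771, and Ndufaf2, an assembly factor of respiratory complex I (chr13:108002715-108158623), had 0.7767. Of these 10 genes, Atpif1, Atp5o and Ndufaf2 act in the mitochondrion and Rpl7a and Eif3m in translation. Rpl7a and Hnrnpa3 belong to families with near-identical processed copies, where counting of uniquely mapped reads can lose or misplace reads, so their values are uncertain.

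Runs of 12 or more purines (A and G) in the coding sequence, a feature that the study had examined, were located. Such runs encode stretches rich in lysine, arginine, glutamate and glycine. The study reported like SKIV2L enrichment at runs rich and poor in lysine, and a stronger one at runs rich in A than in G. Of the 10 leading mRNAs, 6 held such a run. The longest run of each is shown in capitals within 30 coding bases, on the coding strand, from the transcript that the authors chose, so that the kind of sequence can be seen. Psma3 (chr12, 70993570 to 70994379, plus strand, across exons 10 and 11) and Hnrnpa3 (chr2, 75662036 to 75662065, plus strand, exon 4) come first. Rhox5 (chrX, 37805127 to 37805156, plus strand, exon 2) and Atp5o (chr16, 91926872 to 91926901, minus strand, exon 4) follow. Rpl7a (chr2, 26910828 to 26911032, plus strand) carries it at the start of translation, across exons 1 and 2, and Ndufaf2 (chr13, 108091591 to 108091620, minus strand) carries one in exon 2.
Psma3: ggaatctttGAAGGAAGAAGAtgaatcaga
Hnrnpa3: gcagagtGGGAAAAAGAGAGGAtttgcttt
Rhox5: tccaagctGGAGAGGGGAGAGAtgagcaag
Atp5o: gacatcacGAAAAGGGAAAAGttctccccg
Rpl7a: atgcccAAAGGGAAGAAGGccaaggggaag
Ndufaf2: agactattcGAGAGAAAAGGAttgtagaag
The coding sequences of Sparc, Atpif1, Ifitm3 and Eif3m held no run of this length. A matching transcript sequence was found for 188 of the 200 members and for 5829 of all 6296 mRNAs. Over the matched members, 60.6% held at least 1 run, against 65.3% of all matched mRNAs. The members' coding sequences are shorter, and per kilobase they held a median of 1.02 runs against 0.734. The lysine codons AAA and AAG made up a median of 7.35% of their codons, against 6.01%. Across all matched mRNAs the SKIV2L share was only weakly related to the density of runs (Spearman's rho = 0.11, n = 5829 mRNAs) and to the share of lysine codons (rho = 0.23), with mRNAs not independent replicates.

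Proteasome mRNAs made up 11 of the 200, out of 35 measured with a proteasome symbol, or 31.4%, whereas 3.18% of all mRNAs were members. Besides Psma3 they included Psmb3 (share 0.7502), of the core, and Psmc1 (0.7181), an ATPase of the regulatory particle. Respiratory chain mRNAs, for the complexes that transport electrons and make ATP, made up 19 of 74, among them Atp5o, Ndufaf2 and Ndufa5 (0.7652). Of 13 mRNAs for the chaperonin and prefoldin, which fold cytoskeletal proteins, 4 were members, with Pfdn2 (0.6593), Cct7 (0.6455) and Cct5 (0.6404) at the head. Cytosolic ribosomal proteins gave 7 of 56, led by Rpl7a, Rps18 (0.7764) and Rpl32 (0.7669), and snRNP and hnRNP proteins 6 of 34, led by Hnrnpa3, Snrnp27 (0.7190) and Hnrnpc (0.7132). Basement membrane and matrix mRNAs gave 3 of 12, namely Sparc, Lamb1 (0.6986), a laminin chain, and Col18a1 (0.6891), a collagen. Of the 6 S100 and annexin mRNAs, S100a6 and Anxa4 were members, and of the 17 lysosomal mRNAs only Psap. Of 21 mRNAs for chaperones of the endoplasmic reticulum, 0 were members. From the Ski complex, exosome and rescue factors, 2 of 21 were members: Slbp (0.6984), which binds the stem-loop of histone mRNAs, and Exosc3 (0.6758), a subunit of the exosome cap. After the values were seen, eIF3 was added, with 4 of 12 (Eif3m, Eif3g, Eif3h and Eif3c), and mitochondrial ribosomal proteins, with 5 of 69. The groups are counts on a list chosen by readout and were not tested.

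The mRNAs of the list were short, in the 3′ UTR and in the coding sequence. Their median transcript length was 1472 nt, against 2964 nt over all 6296 mRNAs, 2343 nt for the 200 mRNAs with the largest MTR4 share and 3429 nt for the 200 with the largest XRN1 share. The median 3′ UTR was 279 nt against 936 nt, 544 nt and 1618 nt in the same order. A 3′ UTR under 300 nt was found in 53% of the members, in 19.3% of all mRNAs, in 32% of the MTR4 list and in 2.5% of the XRN1 list. The median coding sequence was 826 nt against 1422 nt, and the median 5′ UTR 117 nt against 162 nt. Single members departed from this: Psma3 is annotated with a 3′ UTR of 1952 nt and Serbp1, an mRNA-binding protein, with 13777 nt in a transcript of 15474 nt. Across all 6296 mRNAs the SKIV2L share fell with the length of the 3′ UTR (rho = -0.33) and of the transcript (rho = -0.29). It rose with the level in RPKM (rho = 0.50), a column that also set the minimum of the rule. Members had a median of 95.8 RPKM, against 25.3 over all mRNAs, so length and level move together with the share and their parts were not tested.

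**Figure D1:**
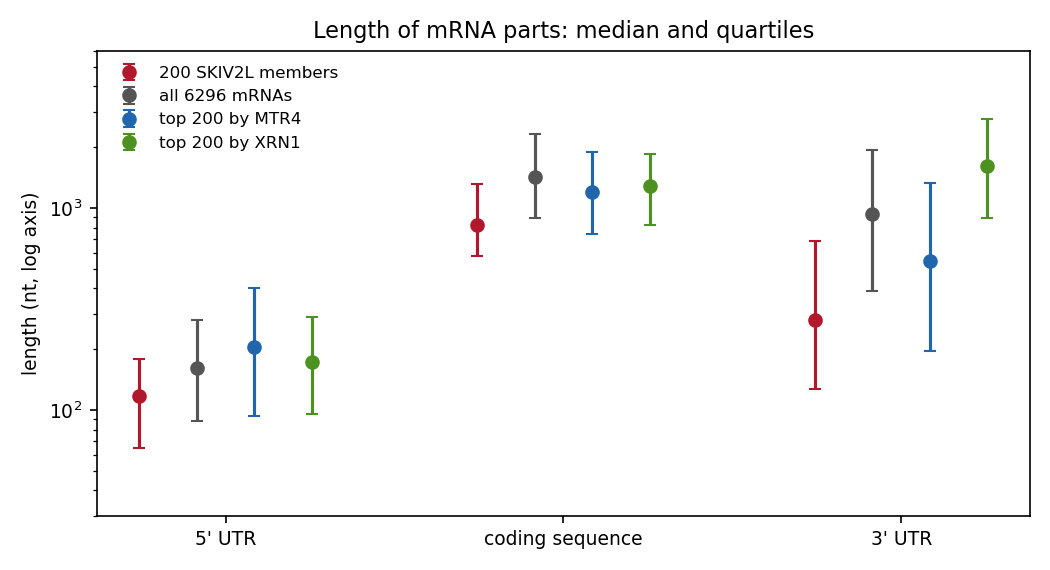
Median length (points) with lower and upper quartile (bars) of the 5′ UTR, coding sequence and 3′ UTR in nt on a log axis, for the 200 members, all 6296 mRNAs and the 200 mRNAs with the largest MTR4 or XRN1 share. The members have the shortest median in all 3 parts, and their 3′ UTR (279 nt) compares with 1618 nt in the XRN1 list.

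AVEN binding, as a ratio of AVEN reads to the same sum of 3 proteins, had a median of 0.347 over the members and 0.303 over all mRNAs. It was 0.156 in the MTR4 list and 0.195 in the XRN1 list. The ratio shares its denominator with the SKIV2L share, so this too is a description. A ratio above 1 was seen in 4 of the 200 members and in 38 of the 6296 mRNAs. The 4 were Med29 (1.76), a Mediator subunit, Lamb1 (1.69), Sparc (1.49) and Vamp8 (1.14), a SNARE protein of endosomes. Med29 had only 5.49 RPKM, close to the minimum.

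Before the members' values are given, the labels were checked on the targeted genes in mock libraries. Normalised counts, here counts scaled for library size, with 1 spike-in factor per time point, stood for Skiv2l in clone 5F at 4150, 4136 and 4205 at day 0 and at 4415, 3825 and 4162 at day 4. The groups overlapped (log2 change -0.01 ± 0.05 SE, edgeR quasi-likelihood adjusted p = 0.91). In clone 7E Skiv2l stood at 968, 1038 and 903 at day 0 and at 406, 389 and 368 at day 4, a fall (log2 -1.32 ± 0.07 SE, adjusted p = 7.8e-13). Untreated clone 7E thus already held less Skiv2l mRNA than clone 5F (log2 -2.10 ± 0.05 SE, adjusted p = 1.1e-19), so that the clones differed in Skiv2l as well as Aven at day 0. The counts cover the whole gene, including exons that the deletion leaves, so they check a fall in the mRNA and not the deletion itself. Aven stood at 1004, 1012 and 998 in clone 5F at day 0 and at 56.6, 86 and 58.1 in clone 7E, which is labelled Aven-/- (log2 -3.90 ± 0.10 SE, adjusted p = 4.9e-19). Pluripotency markers were present in every group, with all 10 listed genes above 1 CPM and a summed level of 3203 to 4070 CPM.

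The mRNAs of the list decayed slowly in every group. In clone 5F at day 0 their median half-life was 468, 517 and 535 min in the 3 replicate series, or 506 min ± 34.6 (SD, n = 3), whereas it was 297 min ± 10.3 (SD, n = 3) over all 6296 mRNAs. The series did not overlap. In a single fit over all libraries of that group the medians were 515 min for the members, 299 min for all mRNAs, 237 min for the MTR4 list and 223 min for the XRN1 list. Half-lives over 360 min, the length of the chase, were reached by 82.5% of the members and by 37.9% of all mRNAs, and such values are extrapolated. Leading members lay on both sides of the median, with 370 min for Psma3, 319 min for Hnrnpa3, 619 min for Sparc and 665 min for Rhox5. The list also held mRNAs with short fitted half-lives: 7 members had values under 180 min, among them Rpl10a, a ribosomal protein, with 116 min and Slbp with 131 min. The shortest-lived of 3 equal classes of half-life over all mRNAs held 10 members and 2088 other mRNAs. At the other end stood Decr1, an enzyme of mitochondrial fatty acid oxidation, with 1463 min. Rpl10a was the shortest-lived member in all 4 groups of clone and day, at 108 to 116 min. The 7 ribosomal protein members had a median of 479 min in clone 5F at day 0. Rpl10a had 48.6 RPKM, against a median of 239 RPKM for these 7. The caution on uniquely mapped reads given for Rpl7a may hold for Rpl10a too, so its value is uncertain.

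Short mRNAs are often stable, so members were compared with other mRNAs of like length. In the shortest of 3 equal classes of length over all 6296 mRNAs the members had a median half-life of 525 min (146 mRNAs) and the other mRNAs 362 min (1954 mRNAs), in clone 5F at day 0. In the middle class the values were 488 min (42 members) and 280 min, and in the longest class 463 min (12 members) and 261 min. The members' half-lives were thus longer in each class of length. Their level was higher in each class as well, with a median of 102 against 39.8 RPKM in the shortest, and its part was not tested.

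The groups of genes differed in stability, and within a group members and other mRNAs were often alike. In clone 5F at day 0 the 19 respiratory chain members had a median half-life of 584 min and the 55 respiratory chain mRNAs outside the list 578 min. The 11 proteasome members had 544 min and the other 24 mRNAs 479 min, and the 7 ribosomal protein members had 479 min and the other 49 mRNAs 468 min. The snRNP and hnRNP members were shorter-lived, with 361 min for 6 members and 393 min for the other 28. Sparc, Lamb1 and Col18a1 had a median of 423 min and the 9 other matrix mRNAs 417 min. The 21 mRNAs for chaperones of the endoplasmic reticulum, of which 0 were members, had 401 min. In clone 7E at day 4 the respiratory chain members had 431 min and the proteasome members 394 min, against 514 and 505 min at day 0, and the mRNAs of these groups outside the list had 424 and 350 min, against 514 and 440 min.

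At day 4 the members' half-lives were shorter in clone 7E. The replicate series gave 428, 489 and 475 min at day 0 and 344, 376 and 421 min at day 4, which is 464 min ± 32 and 381 min ± 38.9 (SD, n = 3 each), with each day 4 value below all day 0 values. Over all mRNAs the medians were 298 min ± 2.28 and 286 min ± 4.9. In clone 5F the series gave 506 min ± 34.6 at day 0 and 438, 458 and 563 min, or 486 min ± 67.2, at day 4, and these overlapped. The decline was steeper at day 4 than at day 0 in 179 of the 200 members in clone 7E, or 89.5%, against 61.3% of all mRNAs, and in 57.5% of the members in clone 5F, against 54%. In the MTR4 and XRN1 lists it was steeper in 41.5% and 42% in clone 7E. Long-lived mRNAs outside the list moved in a like way: in the longest-lived of 3 equal classes of half-life, set in clone 5F at day 0, the median in clone 7E went from 495 to 397 min for 156 members and from 469 to 400 min for 1943 other mRNAs. These medians are descriptions over mRNAs, which are not replicates, and with each library scaled by its own spike-ins the members' median at day 4 in clone 7E was 446 min, against 487 min at day 0. That of all mRNAs then turned direction, with 328 min at day 4 against 306 min at day 0.

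**Figure D2:**
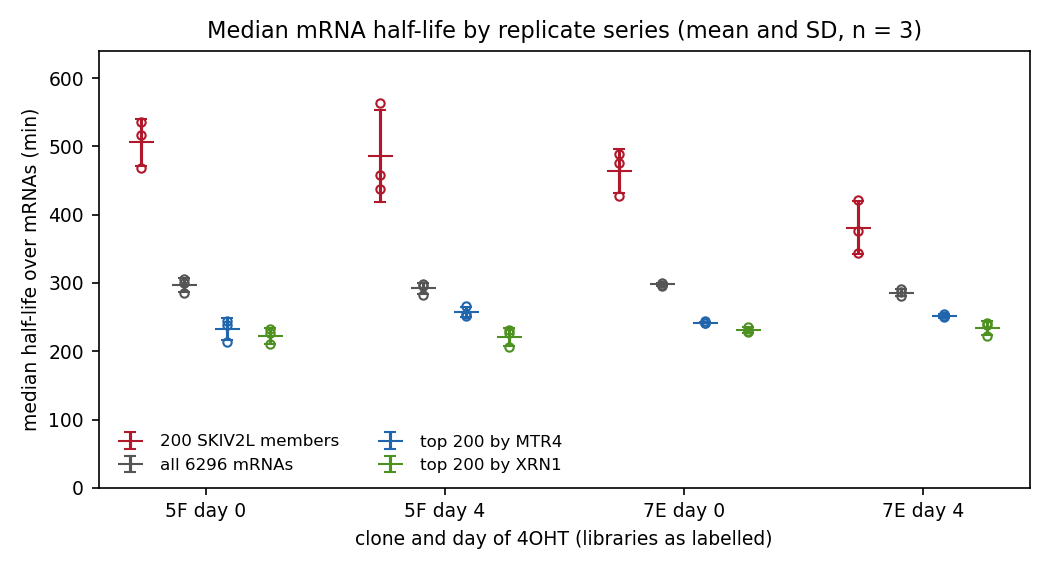
Median half-life in min over the members, over all 6296 mRNAs and over the MTR4 and XRN1 lists, in 4 groups of clone and day of 4OHT. Open circles are the 3 replicate series and bars their mean with SD (n = 3). The members lie above the other sets in all groups and fall from 464 to 381 min in clone 7E.

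The test of single genes called few changes in decay. In clone 7E, 3 of the 200 members passed the test for steeper decline at day 4 and 0 for slower decline, where 0.488% and 0.408% of the 17417 genes tested passed in these directions (edgeR quasi-likelihood test, Benjamini-Hochberg adjusted p under 0.05). Of the 6296 non-histone mRNAs, 0.889% and 0.175% passed. The median change in slope was -0.027 log2 per hour over the members and -0.002 over all genes (-0.007 and 0.019 with each library's own spike-in scaling). An unadjusted p under 0.05 was reached by 33 members, or 16.5%, and by 8.68% of all genes. DESeq2 called 7 members steeper and 1 slower, and 1.05% and 0.61% of the genes to which it gave an adjusted p. In clone 5F, edgeR called 0 members in either direction (background 0.0614% steeper and 0.134% slower). There 8 members, or 4%, had an unadjusted p under 0.05, against 3.78% of all genes. DESeq2 called 1 member in each direction (background 0.151% steeper and 0.095% slower). The difference between the clones in the change of slope was called by edgeR for 0 members and for 0% of 18623 genes, and by DESeq2 for 0 members. By edgeR 9 members (4.5%) and 477 genes (2.56%) had an unadjusted p under 0.05. The members' median of this difference was -0.021, -0.022 and -0.024 log2 per hour in the 3 replicate series, below 0 in each, and -0.023 in the fit, against -0.004 over all genes. With a block by time point and replicate number, chosen after the data were seen, the median was -0.022, and 0 members and 8 genes were called. No single member was thus shown to change its decay differently in the clones.

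Spp1 encodes osteopontin, a secreted phosphoprotein. In clone 7E at day 0 its normalised counts were 6709, 6456 and 6878 in the mock libraries and 5038, 5543 and 5869 after 360 min of actinomycin D. At day 4 they were 10859, 11042 and 10204 in the mock libraries and 4472, 4461 and 5568 after 360 min. Spp1 thus started higher at day 4 without overlap and ended at levels that overlapped, and the slope changed by -0.15 ± 0.02 log2 per hour (SE, adjusted p = 0.00027). Its fitted half-life was 1259 min at day 0 (969 to 1799 min for 1 SE of the slope) and 309 min at day 4 (285 to 337 min). Tars, the threonyl-tRNA synthetase, started at 9875, 9739 and 10192 at day 0 and at 11995, 11850 and 11227 at day 4. It ended at 7039, 7585 and 7770 and at 5580, 5426 and 6318 after 360 min, without overlap between the days. Its half-life was 875 min and then 352 min, with a slope change of -0.10 ± 0.01 (SE, adjusted p = 0.00031). Eif3c, a core subunit of eIF3, stood at 24773 to 25077 in the mock libraries of day 0 and 31515 to 31818 at day 4, and after 360 min at 15481 to 16657 and 15935 to 16067. Its slope change was -0.06 ± 0.01 (SE, adjusted p = 0.0023). The fitted half-lives were lower at day 4 in clone 5F as well, where edgeR called 0 members. They went from 863 to 429 min for Spp1, from 767 to 449 min for Tars and from 591 to 435 min for Eif3c. In clone 7E all 3 were higher at day 4 before the chase, and Tars also ended lower. The part of the higher start in the lower half-lives was not tested. None of the 3 calls held without replicate 2, where the slope changes were -0.13, -0.09 and -0.05, and the Eif3c call was also lost without either other replicate (-0.06 and -0.05) and with each library's own spike-in scaling (-0.04).

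**Figure D3:**
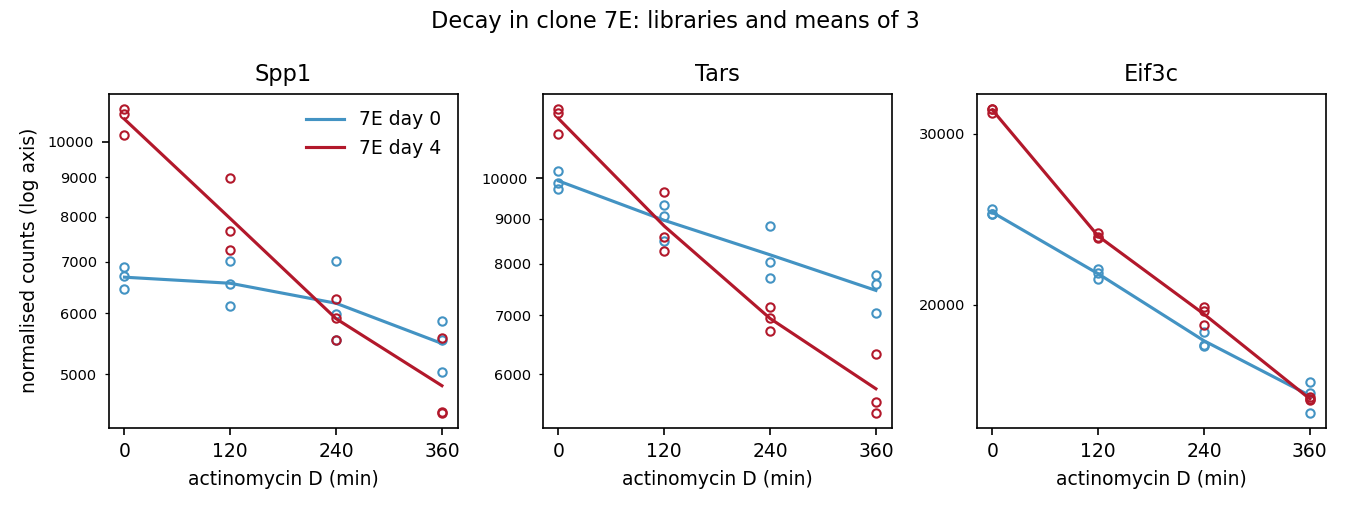
Normalised counts on a log axis against min of actinomycin D in clone 7E for Spp1, Tars and Eif3c. Circles are libraries (3 per point) and lines join the means at day 0 and day 4. In each panel the day 4 line starts higher and falls more steeply.

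Levels after 4OHT moved in both directions. In clone 5F, 19 members rose and 41 fell at day 4 in the mock libraries, or 9.5% and 20.5%, where 12.8% of the 16349 genes tested rose and 11.6% fell. Of the 6296 non-histone mRNAs from which the members were chosen, 15.3% rose and 18.5% fell, so the members' falls were near that share. In the MTR4 list 11.5% rose and 23% fell, and in the XRN1 list 10% and 24.5%. With each library scaled by its own ERCC counts, 5 members rose and 49 fell, with medians of -0.115 over the members and -0.074 over all genes. The median log2 change was -0.046 over the members, -0.025 over the 6296 mRNAs and -0.005 over all genes. Of the 200 members, 80 had groups of 3 and 3 libraries that did not overlap, against 37.8% of all genes. In clone 7E, 46 members rose and 44 fell, or 23% and 22%, where 20.7% of the 16333 genes rose and 19.4% fell, so the members' shares were near the background. Of the 6296 mRNAs, 20.5% rose and 26.4% fell. The median was -0.036 against -0.008, and 105 members had groups that did not overlap, against 48.8% of all genes. Both clones called 37 members, 35 of them in the same direction, and 87 were called in neither. That is 18.5% and 43.5% of the members, against 16.8% and 51.2% of the 15836 genes tested in both clones. The 41 falls in clone 5F rest in part on single replicates: without replicate 1, 19 members fell, without replicate 3, 11 fell, and without replicate 2, 53 fell. In clone 7E the count of called members was 51 without replicate 1.

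Clone 7E at day 4 also differed in total RNA relative to the spike-ins. Its mock libraries held 151 to 156 gene counts per ERCC count, against 312 to 322 at day 0, while clone 5F held 334 to 363 and 324 to 352. The scaling used here sets that aside and gives changes relative to the other genes. With each library scaled by its own ERCC counts, the median change of all genes in clone 7E was -1.11 and that of the members -1.14 on the log2 scale, 199 members fell, and S100a6 alone rose (1.01). A rise of any other member in clone 7E is therefore a rise relative to other mRNAs, and its direction against the spike-ins was the opposite. A lower amount of RNA per cell and fewer cells cannot be told apart in these bulk libraries.

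**Figure D4:**
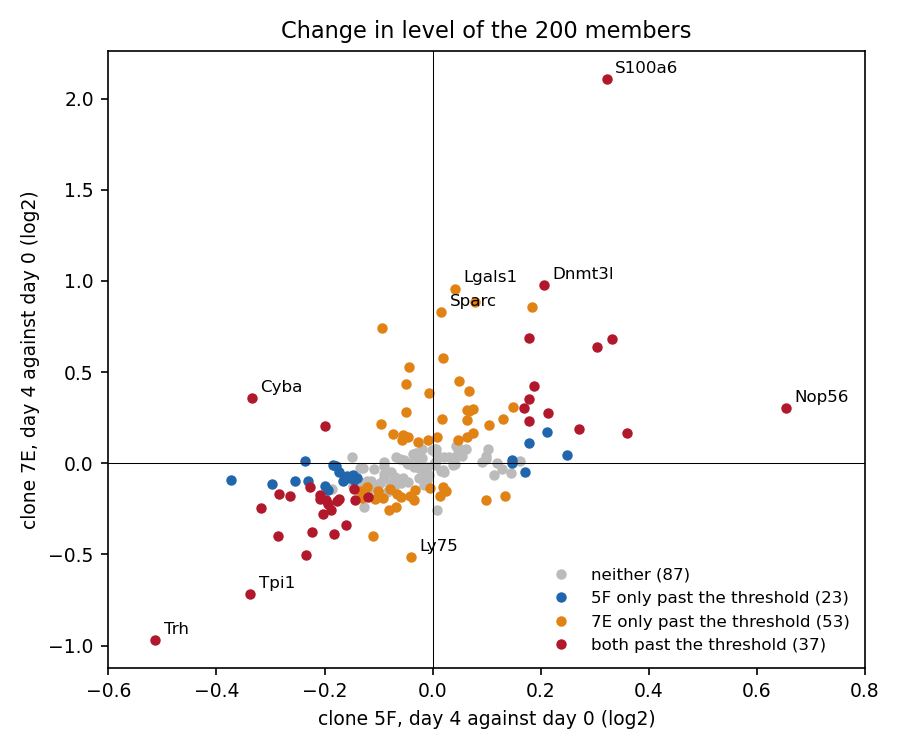
Log2 change in mock level from day 0 to day 4 in clone 5F (x axis) and clone 7E (y axis), 1 point for each of the 200 members, coloured by whether it passed the test in neither clone (87), in 5F only (23), in 7E only (53) or in both (37). The points run from -0.51 to 0.65 in clone 5F and from -0.97 to 2.11, the value of S100a6, in clone 7E.

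In clone 5F the largest rise among the members was that of Nop56, a core protein of box C/D snoRNPs that act in rRNA processing. It went from 10660, 10595 and 10595 normalised counts at day 0 to 17103, 16433 and 16591 at day 4, far apart (log2 0.65 ± 0.04 SE, adjusted p = 3.4e-10). Pold1, the catalytic subunit of DNA polymerase delta, rose from 3812, 4221 and 3948 to 5247, 4679 and 5445 (log2 0.36 ± 0.05 SE, adjusted p = 5.8e-05). Spp1 (0.33), S100a6 (0.32), a small calcium-binding protein, and Cdh1 (0.31 ± 0.05 SE), which encodes E-cadherin, rose as well. Trh, the precursor of thyrotropin-releasing hormone, fell the most, from 9809, 9595 and 10039 to 7427, 6402 and 6795 (log2 -0.51 ± 0.05 SE, adjusted p = 2.1e-07). Tmem43, a protein of the inner nuclear membrane, fell by 0.37, Tpi1, a glycolytic enzyme, by 0.34, and Ndufb3, of respiratory complex I, by 0.32 on the log2 scale. Cyba, a subunit of NADPH oxidase, was low and variable, at 246, 280 and 278 and then 239, 175 and 223 (log2 -0.33 ± 0.11 SE, adjusted p = 0.027), and its call was lost without replicate 2 (-0.18) or replicate 3 (-0.34).

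In clone 7E S100a6 rose from 1600, 1525 and 1523 to 7017, 6660 and 6383 (log2 2.11 ± 0.05 SE, adjusted p = 5.8e-19), the largest change of any member. Dnmt3l, a regulator of the de novo DNA methyltransferases, rose from 3345, 3414 and 3441 to 6688, 6601 and 6781 (log2 0.98 ± 0.05 SE, adjusted p = 2.4e-14) but stayed below its level in clone 5F, 8581 to 8732 at day 0. Lgals1, which encodes galectin-1, went from 1306, 1363 and 1411 to 2824, 2541 and 2561 (log2 0.96). Lmna, the nuclear lamina protein lamin A/C, rose by a log2 of 0.88 and Cd63, a tetraspanin of endosomes, by 0.86. Each of these but S100a6 was lower against the spike-ins (Dnmt3l -0.12, Lgals1 -0.14, Lmna -0.21 and Cd63 -0.24). Trh fell again, from 12456, 12881 and 13580 to 6641, 6545 and 6714 (log2 -0.97 ± 0.05 SE, adjusted p = 3.3e-14), and Tpi1 from 5918, 5862 and 6462 to 3684, 3603 and 3797 (log2 -0.72). Ly75, an endocytic lectin receptor, fell by 0.52, G3bp2, a protein of stress granules, by 0.50 and Cbr3, a carbonyl reductase, by 0.40 on the log2 scale.

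By group, respiratory chain members gave 0 rises and 5 falls in clone 5F and 1 rise, Cox4i1, and 7 falls in clone 7E, out of 19. The 55 respiratory chain mRNAs outside the list gave 1 rise and 17 falls, and then 4 and 19. Of the 11 proteasome members, Psma2 and Psmb4 fell in clone 5F and Psma4 fell in clone 7E. The 24 outside the list gave 1 rise and 4 falls, and then 0 and 7. Psma3 itself passed in neither, with 1325, 1317 and 1348 at day 0 and 1208, 1294 and 1166 at day 4 in clone 5F (log2 -0.12, adjusted p = 0.12). The 4 chaperonin and prefoldin members passed in neither clone, and of the 9 outside the list only Pfdn1 passed, with a fall in both. Ribosomal protein members gave 1 rise (Rpl10a) and 1 fall (Rpl32) in clone 5F and 2 rises (Rpl10a and Rps15) in clone 7E, out of 7. The 49 outside the list gave 6 rises and 6 falls, and then 9 and 3. The snRNP and hnRNP members gave 1 rise, Hnrnph1, and 1 fall, Snrnp27, in clone 5F and 1 rise, Snrpb, in clone 7E, out of 6. The 28 outside the list gave 9 rises and 5 falls, and then 5 and 7. Sparc, Lamb1 and Col18a1 all rose in clone 7E, by 0.83, 0.30 and 0.23 on the log2 scale relative to other genes, and only Col18a1 in clone 5F (0.18). The 9 matrix mRNAs outside the list gave 5 rises in clone 7E and 7 in clone 5F, and 0 falls. Against the spike-ins the 3 were lower in clone 7E (-0.27, -0.80 and -0.87). The Col18a1 calls were lost without replicate 1 in both clones (0.19 in 7E and 0.11 in 5F) and without replicate 3 in 5F (0.16). Psap, the precursor of the saposins, rose in both clones. The 16 lysosomal mRNAs outside the list gave 2 rises and 3 falls in clone 5F and 9 rises and 2 falls in clone 7E.

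Of 24 listed genes of the Ski complex, the exosome and rescue factors, the pathway of SKIV2L itself, 23 were tested. In clone 5F 3 rose (Exosc10, Focad and Xrn1) and 6 fell, and in clone 7E 2 rose (Exosc10 and Hbs1l) and 9 fell, Skiv2l among them. Over all genes tested 12.8% rose and 11.6% fell in clone 5F, and 20.7% rose and 19.4% fell in clone 7E. The 2 members of this list differed: Slbp fell in both clones, by 0.21 ± 0.05 and 0.17 ± 0.05 on the log2 scale (SE, adjusted p = 0.0029 and 0.011), whereas Exosc3 did not pass in clone 5F (-0.07 ± 0.06 SE, adjusted p = 0.36) or in clone 7E (-0.11 ± 0.06 SE, adjusted p = 0.16). The Slbp calls were lost without replicate 1 (-0.18 in 5F and -0.20 in 7E) and without replicate 3 (-0.20 and -0.10).

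The change in level differed between the clones for 35 members, 26 with a larger value in clone 7E and 9 with a smaller one, where 6.65% and 5.29% of the 17209 genes tested did so (edgeR interaction term, adjusted p under 0.05). These were 13% and 4.5% of the members, against 7.24% and 7.72% of the 6296 mRNAs. The shares were 2% and 9% in the MTR4 list and 11.5% and 18% in the XRN1 list. Without replicate 1 the count of members was 20. The median difference was 0.017 log2 over the members and -0.001 over all genes. S100a6 rose by 1.79 more on the log2 scale in clone 7E (SE 0.09, adjusted p = 6.8e-12). Lgals1 (0.92), Tmsb4x (0.83), an actin-sequestering thymosin, Sparc (0.81 ± 0.05 SE) and Lmna (0.80) followed. Tmsb4x stood at 4665, 4369 and 4642 in clone 7E at day 0 and at 7730, 8177 and 6948 at day 4, while in clone 5F it stood at 6604, 5993 and 6185 and then at 5985, 6094 and 5532. Ly75 (-0.47), Trh (-0.45), Tpi1 (-0.38), Nop56 (-0.35) and Aldh2 (-0.30), the mitochondrial aldehyde dehydrogenase, differed the other way. Nop56 thus rose less in clone 7E, from 12644, 12529 and 12740 to 15883, 15825 and 15048. The Aldh2 call was lost without replicate 1 (-0.31) or replicate 3 (-0.28), and that of Lamb1 (0.22 ± 0.06 SE) likewise (0.24 and 0.19). Against the spike-ins, Lgals1, Tmsb4x, Sparc, Lmna and Lamb1 gave differences below 0 (-0.11, -0.20, -0.22, -0.22 and -0.81), and S100a6 alone stayed above it.

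Markers of other cells moved between the same groups. The 6 fibroblast or feeder genes summed to 3.3 to 3.84 CPM in clone 7E at day 0, with Lum and Postn at 0, and to 10.7 to 11.8 CPM at day 4, and all 4 that could be tested rose. In clone 5F they summed to 9.22 to 9.52 and 11.5 to 12.3 CPM. The pluripotency genes fell from 3882 to 3977 CPM to 3203 to 3275 CPM in clone 7E, with 9 of 10 past the test, and primitive endoderm genes stood at 23.4 to 25.5 and 23.5 to 24.7 CPM. In clone 5F primitive endoderm genes went from 217 to 224 CPM to 162 to 166 CPM, with 4 of 8 lower and 1 higher. The 4 neural genes summed to 109 to 117 and 162 to 173 CPM in clone 7E and to 84.2 to 86.6 and 103 to 112 CPM in clone 5F. The sums do not stand for the list: of the 3 neural genes tested, 1 was higher and 2 were lower in clone 7E (median log2 -0.32). In clone 5F 1 was higher and 1 lower. The mesoderm genes stayed at or under 6.8 CPM in all groups. The part of such cells in the rises of S100a6, Lgals1, Lmna and Sparc was not tested.

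**Figure D5:**
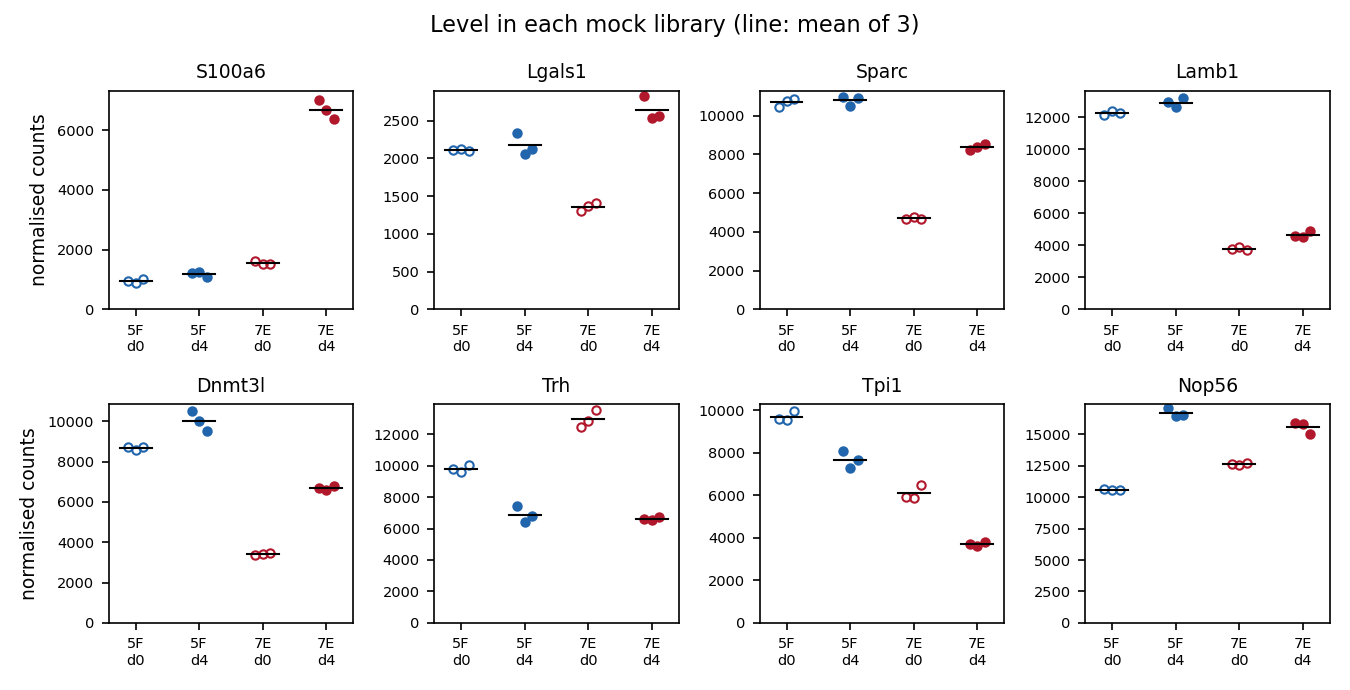
Normalised counts in each mock library for S100a6, Lgals1, Sparc, Lamb1, Dnmt3l, Trh, Tpi1 and Nop56, with open circles for day 0, filled circles for day 4, blue for clone 5F, red for clone 7E and a line at the mean of 3. S100a6 in clone 7E at day 4 (6383 to 7017) stands apart from all other groups, and Lamb1 in clone 7E (3705 to 4897) lies below every library of clone 5F.

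Without 4OHT, the clones differed for many members. At day 0, 41 members were higher and 54 lower in clone 7E than in 5F, or 20.5% and 27%, where 20% of the 16299 genes tested were higher and 19.7% lower. Of the 6296 non-histone mRNAs from which the members were chosen, 27.7% were higher and 22.3% lower. With each library scaled by its own ERCC counts, 15 members were higher and 113 lower, with medians of -0.176 over the members and -0.167 over all genes. The medians were -0.017 log2 over the members and -0.006 over all genes, and 107 members had groups that did not overlap, against 48.6% of all genes. The fit behind the 41 and 54 did not pair libraries by replicate number. With a replicate block 58 members were higher and 75 lower, against 24.7% and 25.1% of all genes. Lamb1 was the most reduced, at 12126, 12398 and 12273 in clone 5F and 3750, 3913 and 3705 in clone 7E (log2 -1.69 ± 0.04 SE, adjusted p = 1.1e-19). Dnmt3l followed with a log2 of -1.35, and Sparc fell from 10456, 10751 and 10845 to 4670, 4778 and 4686 (log2 -1.18). Phlda2, the product of an imprinted gene, was lower by a log2 of -0.70 and Tpi1 by -0.67. Col18a1 was slightly lower (-0.13 ± 0.04 SE, adjusted p = 0.011). Among other matrix and laminin mRNAs outside the list, 5 of 9 were lower as well. Primitive endoderm markers summed to 217 to 224 CPM in clone 5F and 23.4 to 25.5 CPM in clone 7E, with all 8 listed genes lower (median log2 -3.32), and laminins and Sparc are abundant products of that cell type. All 4 fibroblast or feeder genes that could be tested were lower too (median log2 -1.49). The part of these cells in the lower levels of Lamb1 and Sparc was not tested.

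Higher in clone 7E at day 0 were Palld, an actin-associated protein, at 2744, 2698 and 2851 against 1506, 1433 and 1543 (log2 0.89 ± 0.05 SE, adjusted p = 3e-13), and Pfdn2, at 2566, 2488 and 2653 against 1331, 1459 and 1429 (log2 0.87). Phf11d, a PHD finger protein, Cox4i1, of cytochrome c oxidase, and Fh1, the mitochondrial fumarate hydratase, were higher by a log2 of 0.85, 0.78 and 0.75. For each of these 5 the libraries of the clones were far apart. Hnrnpa3 was slightly higher (0.20 ± 0.07 SE, adjusted p = 0.023), a call lost without replicate 2 (0.19) or replicate 3 (0.11) and with own spike-in scaling (0.03). Decay at day 0 differed between the clones for 0 members by edgeR and by DESeq2, where 0.0281% and 0.00563% of 17766 genes declined more slowly or more steeply in clone 7E by edgeR. An unadjusted p under 0.05 was reached by 5 members, or 2.5%, and by 4.58% of all genes. Blocking by time point and replicate number together, chosen after the data were seen, called 20 members, 17 of them steeper and 3 slower in clone 7E, against 3.54% and 6.34% of all genes. This comparison of decay thus turns on how the libraries are paired.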

How the data were processed

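The authors mapped RNA-seq reads to GRCm38 (mm10) with ERCC sequences and GENCODE vM16 genes by STAR, kept uniquely mapped reads and deposited raw counts per gene, without strand. The authors deposited relative binding as a ratio from pooled, scaled CRAC counts, RPKM values of the tagged lines, and a score equal to the SKIV2L share times median RPKM over the RPKM of the SKIV2L line, used only as an alternative choice of members. The authors' fold changes, adjusted p-values and half-lives were not used. Lengths came from the authors' transcripts, and coordinates and exons from GENCODE M21 of the same build.

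Members, gene lists and tests were chosen with earlier results of these data known. Named genes were the 10 leading members, 3 on each side of the limit, up to 5 called members per direction and comparison with a mean of at least 100 counts, the 3 leading members of each list, and Slbp; others were named after their values were seen. The proteasome list, made by symbol, holds Psmc3ip, no subunit and no member.

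Counts were scaled by DESeq2 size factors within a time point and 1 factor per time point (1, 0.649, 0.531 and 0.438) from 34 ERCC sequences, so a change of all mRNAs between clones or days is not seen. Genes passing filterByExpr were tested with edgeR 4.0.16 (quasi-likelihood, Benjamini-Hochberg, threshold 0.05) in R 4.3.3, with DESeq2 1.42.0 as an alternative, and all 200 members were tested in each comparison. Decay tests compared log2 slopes on hours, and half-lives came from a line through ln(normalised count + 1). The tests were tried on simulated counts drawn independently for each library, with slope changes larger than that of any called member. That trial does not measure how often slope changes of the size seen here are called. Groups share replicate numbers in the labels. Between the clones at day 0, mock libraries of the same number deviated together (correlations 0.214 to 0.433, and 6 of 6 libraries closest to their own number), so the numbers pair those samples. Between the days within a clone the mock libraries did not (correlations -0.379 to -0.0843 in 5F and -0.355 to -0.05 in 7E, with 0 of 6 libraries closest to their own number in each). Over all libraries of a clone, 1 of 23 in 5F and 2 of 24 in 7E were closest to their own number. Within a time point, libraries of the same number correlated with a median of 0.255, but single pairs ran from -0.466 to 0.843. Only 19 of the 47 libraries were closest to their own number there.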

Additional observations from a re-analysis of the deposited data

Results flagged for a closer look

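The change in level after 4OHT differed between the clones for 35 of the 200 members by edgeR's interaction term, and 10 of them are named. On the log2 scale the change in clone 7E minus that in clone 5F was 1.79 for S100a6, 0.92 for Lgals1, 0.83 for Tmsb4x, 0.81 for Sparc and 0.80 for Lmna. It was -0.47 for Ly75, -0.45 for Trh, -0.38 for Tpi1, -0.35 for Nop56 and -0.30 for Aldh2. Each clone is 1 line, so clone and genotype cannot be told apart.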

How the results depend on the processing

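Members called in clone 5F went from 60 to 37 with the replicate block, and to 21 to 81 when a replicate was left out. In clone 7E they went from 90 to 200 with each library's own ERCC scaling and to 51 to 89 without a replicate, and the difference between the clones from 35 to 198 and to 20 to 29. Own ERCC scaling shifted all genes, as its construction implies, and reversed the change in 7E of Cd63 (-0.24), Col18a1 (-0.87), Dnmt3l (-0.12), Lamb1 (-0.80), Lgals1 (-0.14), Lmna (-0.21), Rhox5 (-0.57) and Sparc (-0.27). It reversed the clone difference of Lamb1 (-0.81), Lgals1 (-0.11), Lmna (-0.22), Rhox5 (-0.46), Sparc (-0.22) and Tmsb4x (-0.20), and set the members' median half-life in 7E at day 4 at 446 min. Decay calls in 7E went from 3 to 7 with TMM, 8 with DESeq2, 6 at a mean of at least 100 counts and 0 to 2 without a replicate. Decay calls in 5F went from 0 to 2 with DESeq2. A block by time point and replicate number was chosen after the data were seen, from the median correlation of 0.255 between such libraries. Only 19 of 47 libraries were closest to their own number within a time point, so the pairing behind this block is partial. The block gave 2 decay calls in 5F, 13 in 7E and 20 between the clones at day 0. The calls over all genes rose with it. In 7E it called 3 members slower and 10 steeper, against 2.51% and 2.18% of all genes. At day 0 it called 3 slower and 17 steeper, against 6.34% and 3.54%. Where the numbers pair the samples, the replicate block gave 133 members at day 0 between the clones, against 95, with 24.7% of all genes higher and 25.1% lower. Apart from the levels in clone 5F, the other comparisons' calls stayed within 1.5 times under the replicate block. The causes were not tested. The list by the authors' scaled score shared 163 members, with a median transcript of 1656 nt. Protein features were not run, since protein sequences were not used here. Calls rest on 3 technical libraries per group, and half-lives beyond 360 min are extrapolated.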
